A study of Mus musculus with 8 samples.

Results

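The metallothioneins Mt1 and Mt2 and the genes around them in zinc and copper handling were followed in QF (quadriceps femoris, a thigh muscle) of Grpel1skm-/- and control mice. The members were 8 of the 14012 genes of the deposited table, namely Mt1, Mt2, Mtf1, Slc30a1, Slc39a1, Slc39a14, Slc39a10 and Slc31a1. They were selected by name from this table with their values in this comparison known, so their difference between the groups is given as a description, without p-values, and how many lay past the threshold of the fit of all genes is a description too. All 8 had passed the authors' filter on low counts, and the lowest total of any gene in the table was 51 counts over the 8 libraries. GRPEL1 is a co-chaperone of the mitochondrial matrix that serves protein import. The knockout mice carried floxed Grpel1 and Cre-ERT2, a recombinase driven by the human skeletal α-actin promoter and switched on by tamoxifen, which was given from an age of 5 weeks. The control mice were floxed for Grpel1 as well (Grpel1 flox/flox). Where it gives body weights, the study calls such littermates untreated. Its weight curve, however, shows both floxed mice with Cre but no tamoxifen and floxed mice with tamoxifen but no Cre. Neither tamoxifen nor Cre is stated for the control mice sequenced, so an effect of tamoxifen and one of the genotype cannot be told apart. The promoter acts in muscle fibres, so the other cells of the muscle keep the gene. RNA from 4 mice per group was sequenced, 1 library per mouse, and the labels give neither the age nor the time of sampling.

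Metallothioneins are small proteins whose many cysteines bind zinc and copper, and their genes are known to respond to metals, to glucocorticoids and to cytokines of the IL-6 family. The transcription factor MTF-1, encoded by Mtf1, senses free zinc in the cell and binds metal response elements in the promoters of Mt1, Mt2 and Slc30a1. Zinc leaves the cytosol through the ZnT proteins of the SLC30 family and enters it through the ZIP proteins of the SLC39 family. Copper enters the cell through CTR1, the product of Slc31a1, and is handed by chaperones to the enzymes that use it.

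The coding sequences of Mt1 and Mt2 are shown first, because they show what these genes make and how far reads of one could be taken for the other. They were read from the GENCODE M21 transcripts on GRCm38, run 5′ to 3′ without the stop codon, and have each cysteine codon in capitals.
Mt1: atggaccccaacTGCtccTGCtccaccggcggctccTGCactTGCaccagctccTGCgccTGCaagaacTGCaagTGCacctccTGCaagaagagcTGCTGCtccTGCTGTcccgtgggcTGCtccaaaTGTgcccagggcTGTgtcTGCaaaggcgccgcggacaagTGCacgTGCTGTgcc
Mt2: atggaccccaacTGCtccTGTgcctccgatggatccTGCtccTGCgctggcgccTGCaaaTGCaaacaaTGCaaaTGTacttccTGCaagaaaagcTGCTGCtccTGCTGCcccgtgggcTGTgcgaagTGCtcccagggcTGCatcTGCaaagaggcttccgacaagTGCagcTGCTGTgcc
Each holds 61 codons, of which 20 encode cysteine, and all 20 stand at the same codon in both. Of the 183 bases, 145 were identical (79.2%), and the longest stretch shared by the transcripts of these genes ran over 20 bases. No other gene's transcripts held an identical stretch of 75 bases with either. At 25 bases, Mt1 shared a stretch with 1 other gene, Mt3, and Mt2 with 1, Pip5k1a.

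The start regions of Mt1, Mt2 and Slc30a1 are shown because these 3 members held matches to the core of the metal response element. They are RefSeq promoter sequences on GRCm38.p6, from 250 bases before to 30 bases after the annotated start, on the plus strand. The capitals mark each match to TGCACNC or TGCGCNC on either strand.
Mt1, chr8:94178839-94179118: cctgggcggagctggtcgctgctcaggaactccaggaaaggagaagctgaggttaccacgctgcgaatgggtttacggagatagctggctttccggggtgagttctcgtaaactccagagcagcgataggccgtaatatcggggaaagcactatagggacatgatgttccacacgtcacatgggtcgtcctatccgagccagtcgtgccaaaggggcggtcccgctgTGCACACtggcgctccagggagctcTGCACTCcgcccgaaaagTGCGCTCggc
Mt2, chr8:94172368-94172647: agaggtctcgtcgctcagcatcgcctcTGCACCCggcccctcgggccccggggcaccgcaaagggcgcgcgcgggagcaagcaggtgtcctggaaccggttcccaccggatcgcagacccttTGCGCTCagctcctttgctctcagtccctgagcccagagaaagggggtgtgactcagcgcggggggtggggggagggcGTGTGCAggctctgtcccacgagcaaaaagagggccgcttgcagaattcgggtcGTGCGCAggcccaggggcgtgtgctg
Slc30a1, chr1:191906531-191906810: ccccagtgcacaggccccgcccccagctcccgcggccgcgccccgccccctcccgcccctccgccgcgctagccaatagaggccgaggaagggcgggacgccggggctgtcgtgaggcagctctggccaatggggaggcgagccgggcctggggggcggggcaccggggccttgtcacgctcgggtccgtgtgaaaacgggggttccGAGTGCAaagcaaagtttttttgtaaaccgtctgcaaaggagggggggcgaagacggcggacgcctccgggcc
The search covered the RefSeq windows of 300 bases, 250 before the start and 50 from it on, and 7 of the 8 members matched a window by symbol, all but Slc39a14. Mt1 held 3 matches, whose first bases lie at positions -23, 3 and 21 from the start. In Mt2 there were 4, at -223, -128, -50 and 5, and in Slc30a1 there were 2, at -43 and 31, the last of them beyond the bases printed. Among all 32851 windows, 25.7% held at least 1 match, 7.11% at least 2, 1.97% at least 3 and 0.517% at least 4. Mtf1, Slc39a1, Slc39a10 and Slc31a1 held none in these windows, and the window of Slc39a10 is set on a start 109 bases away from the one in the deposited table. The windows end at 94179138 for Mt1 and 94172667 for Mt2, and their coding sequences begin at 94179311 and 94172848. The bases between were not searched, so these counts need not be those of the whole promoters. Positions are counted from the annotated starts, and where transcription begins in this muscle was not examined. A match at a positive position therefore need not lie within the transcript.

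**Figure D1:**
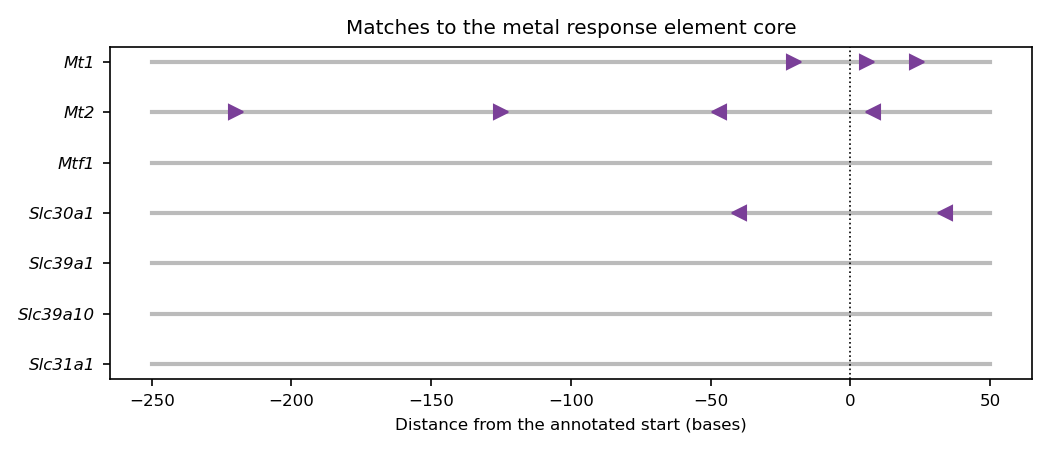
Matches to the metal response element core (TGCACNC or TGCGCNC) in the 300-base start windows of the 7 members with a RefSeq window, with the distance from the annotated start in bases on the x axis and the direction of each triangle giving the strand. Mt1 has 3 matches, Mt2 has 4 and Slc30a1 has 2, and the other 4 windows hold none.

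In the same windows, other response elements were looked for by their letters on both strands. The amino acid response element of ATF4 (CARE, TGATGNAAN) matched in none of the 7 windows, against 3.95% of all windows. The core of the antioxidant response element of NRF2 (TGACNNNGC) had 1 match each in Mt2, Slc30a1 and Slc39a1, and 12.4% of all windows held at least 1. A match describes letters, not binding, and nothing beyond these windows was searched.

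The libraries held between 16017565 and 20361144 counts. Grpel1 itself had 861 to 1087 counts in the control and 1461 to 1658 in the knockout libraries, at -0.066 log2 (standard error, SE, 0.078, adjusted p = 0.49 in edgeR's quasi-likelihood test), so its whole-gene count does not check the labels. For the protein, the study reports less GRPEL1 in QF of the knockout mice, by immunoblot and by immunostaining. Levels below are CPM, read counts relative to library size as corrected by edgeR's TMM factors, unless FPKM, which is also per length of exon, is named. All log2 fold changes are knockout minus control, and a gene passed the test at an adjusted p under 0.01. The TMM factors lay between 0.747 and 0.844 for control and between 1.19 and 1.33 for knockout libraries, and with library totals alone the median over all genes moved from 0.065 to 0.73 on the log2 scale. Grpel1 was at 0.61 with library totals alone (adjusted p = 1.7e-04 in edgeR), which is below that median. Among all genes 23.6% passed as higher and 21.1% as lower, and in 53.4% the groups did not overlap. With library totals alone, 8498 of the 14012 genes passed as higher and 873 as lower.

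Mt1 and Mt2 were both far higher in knockout than in control muscle. Mt1 (Entrez Gene 17748, chr8:94179089-94180327 on GRCm38, plus strand) had 208, 242, 109 and 166 counts in control replicates 1 to 4, or 16.8, 15.8, 7.80 and 10.5 CPM. The knockout replicates had 4951, 4596, 4625 and 3673 counts, or 206, 210, 191 and 146 CPM. The lowest knockout library lay far above the highest control, and the mean was 12.7 ± 4.31 CPM among controls and 188 ± 29.5 CPM among knockouts (SD, n = 4 each). The log2 fold change of Mt1 was 3.89 (SE 0.24), a fold of 14.8.

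Mt2 (Entrez Gene 17750, chr8:94172618-94173567, plus strand) had 98, 112, 85 and 83 counts in the control replicates and 6467, 4960, 6642 and 5122 among knockouts. On the CPM scale these were 7.92, 7.33, 6.08 and 5.23 against 270, 227, 274 and 204. The groups stood well apart, at 6.64 ± 1.21 and 244 ± 34.1 CPM (SD, n = 4 each), or a fold of 36.8 (log2 fold change 5.20, SE 0.16). Of all 14012 log2 fold changes, that of Mt2 ranked 65 from the highest and that of Mt1 ranked 116. In GENCODE M21 the exons of Mt2 share 432 bases with those of Gm45774, a gene on the opposite strand, and whether reads were counted by strand is not stated.

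Per length of exon, the order of these genes turned. The ratio of Mt1 to Mt2 in FPKM was 2.18, 2.22, 1.32 and 2.05 in control replicates 1 to 4 and 0.785, 0.951, 0.714 and 0.736 among knockouts. Thus Mt1 had the higher level in all 4 controls and Mt2 in all 4 knockouts. The FPKM of Mt1 was 31.4, 29.6, 14.5 and 19.5 among controls and 368, 377, 354 and 263 among knockouts. For Mt2 it was 14.4, 13.3, 10.99 and 9.48 among controls and 469, 397, 495 and 357 among knockouts. Among the 14012 genes ordered by mean FPKM, Mt1 moved from place 2287 among controls to 141 among knockouts and Mt2 from 3919 to 103. Their FPKM together was 25.4 to 45.9 among controls and 620 to 849 among knockouts, and their share of all counts went from 0.00104% to 0.00191% among controls to 0.0455% to 0.0584% among knockouts.

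**Figure D2:**
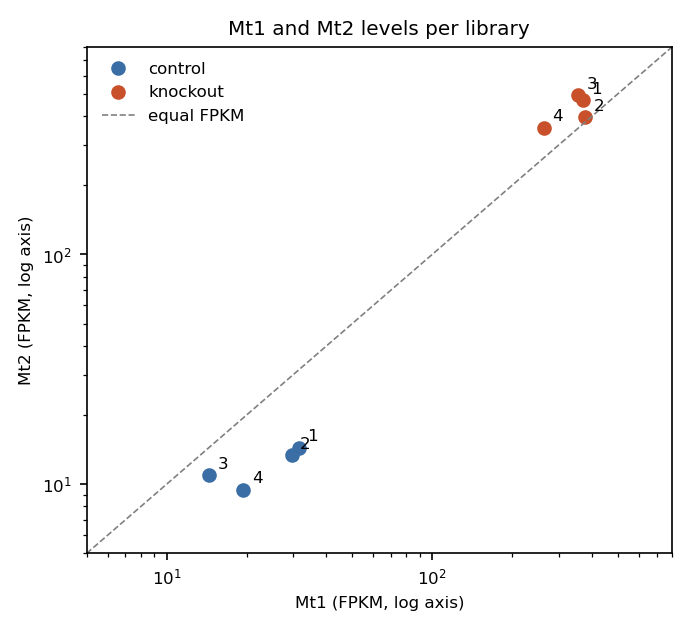
FPKM of Mt1 (x axis) and Mt2 (y axis) in each of the 8 libraries, both on log axes, with the replicate number beside each point and a dashed line where the levels are equal. The 4 control points lie below the line, where Mt1 is higher, and the 4 knockout points lie above it.

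Within a group the libraries differed in Mt1 more than in Mt2. Control replicate 3 had the lowest Mt1 of the controls and knockout replicate 4 the lowest of the knockouts, and in log2 CPM these lay 0.63 and 0.35 under the mean of their group. For Mt2 the libraries farthest under their group mean were control replicate 4, by 0.32, and knockout replicate 4, by 0.25. After each group was centred on its own mean, so that the difference between the groups played no part, Mt1 and Mt2 correlated with Pearson's r = 0.73 and Spearman's rho = 0.74 over the 8 libraries. Without the 2 libraries farthest from the median of Mt1, control replicate 3 and knockout replicate 4, r was 0.77. The points share depth and library, and r ranged from 0.62 without control replicate 1 to 0.87 without control replicate 3.

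By the same measure, the genes most like the mean of Mt1 and Mt2 among 10182 with a mean of at least 50 counts in both groups were Lrig2 (r = 0.974), Nup160 (0.969), Atp6v1e1 (0.968), Cep295 (0.953) and Mrpl39 (0.952). With 8 libraries and 10182 genes searched, values this high can arise by chance. In all, 10 genes lay above 0.9, and none of these likenesses was tested. Of the other members, Slc30a1 had an r of 0.60 and rank 438, Slc31a1 0.46, Slc39a14 0.18 and Slc39a1 0.067. Mtf1 (-0.63) and Slc39a10 (-0.79) ran the other way.

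Mtf1, the zinc sensor, had nearly the same level in both groups. It lies at chr4:124802549-124849800 (Entrez Gene 17764) and had 33.0, 34.2, 40.4 and 35.7 CPM among controls and 32.6, 33.1, 36.1 and 33.3 CPM among knockouts. The groups overlapped, and the log2 fold change was -0.086 (SE 0.077), but 0.58 with library totals alone, which is below the median of 0.73 over all genes when scaled that way. Its exons overlap those of 1110065P20Rik, on the other strand.

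Slc30a1 encodes ZnT1, the zinc exporter of the plasma membrane. It lies at chr1:191906781-191913247 (Entrez Gene 22782) and had 140, 153, 122 and 154 counts among controls and 464, 440, 607 and 505 among knockouts. In CPM these were 11.3, 10.02, 8.73 and 9.70 against 19.3, 20.1, 25.1 and 20.1. The groups did not overlap, with means of 9.94 ± 1.06 and 21.2 ± 2.63 CPM (SD, n = 4 each), which is 1.09 on the log2 scale (SE 0.11). Knockout replicate 3 stood above the other knockouts. In GENCODE M21 its exons share 468 bases with 1700034H15Rik on the other strand.

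The zinc importers among the members went both ways. Slc39a1 (chr3:90248192-90253612, Entrez Gene 30791) encodes ZIP1, an importer of the plasma membrane, and had 52.8, 54.9, 59.8 and 48.8 CPM among controls and 39.8, 40.3, 36.3 and 35.8 CPM among knockouts. All 4 knockouts lay under all 4 controls and the log2 fold change was -0.51 (SE 0.078). With library totals alone it was 0.17, which is below the median of 0.73 over all genes when scaled that way. The raw counts themselves, 654 to 839 among controls and 879 to 955 among knockouts, stood the other way round. So the lower level is one relative to other genes and rests on the scaling.

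Slc39a14 (chr14:70303467-70351424, minus strand, Entrez Gene 213053) encodes ZIP14, which carries zinc, iron and manganese. It had 18.7, 20.8, 19.3 and 19.3 CPM among controls and 26.4, 23.95, 28.3 and 25.9 CPM among knockouts. The groups did not overlap, and the log2 fold change was 0.42 (SE 0.075). Slc39a10 (chr1:46807544-46853509, minus strand, Entrez Gene 227059) encodes ZIP10, another importer of the plasma membrane, and had 8.89, 9.43, 10.9 and 10.1 CPM among controls and 7.34, 9.07, 7.68 and 8.94 CPM among knockouts. Its groups overlapped, with a log2 fold change of -0.25 (SE 0.11), but 0.42 with library totals alone.

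Slc31a1, the gene of the copper importer CTR1 (chr4:62360701-62391769, Entrez Gene 20529), had 25.2, 25.3, 23.6 and 23.9 CPM among controls and 22.5, 19.9, 19.2 and 20.5 CPM among knockouts. The groups did not overlap, and the log2 fold change was -0.25 (SE 0.073), but 0.41 with library totals alone. Of the 8 members, Mt1, Mt2, Slc30a1 and Slc39a14 were past the threshold as higher and Slc39a1 as lower, and in 6 the groups did not overlap. The shares of all genes were 23.6% higher, 21.1% lower and 53.4% without overlap. With library totals alone Mt1, Mt2, Mtf1, Slc30a1, Slc39a14 and Slc31a1 were past it, all as higher. Of all 14012 genes, 8498 were higher and 873 lower with that scaling. These member counts describe the choice of the members and nothing is read from them against the shares of all genes.

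**Figure D3:**
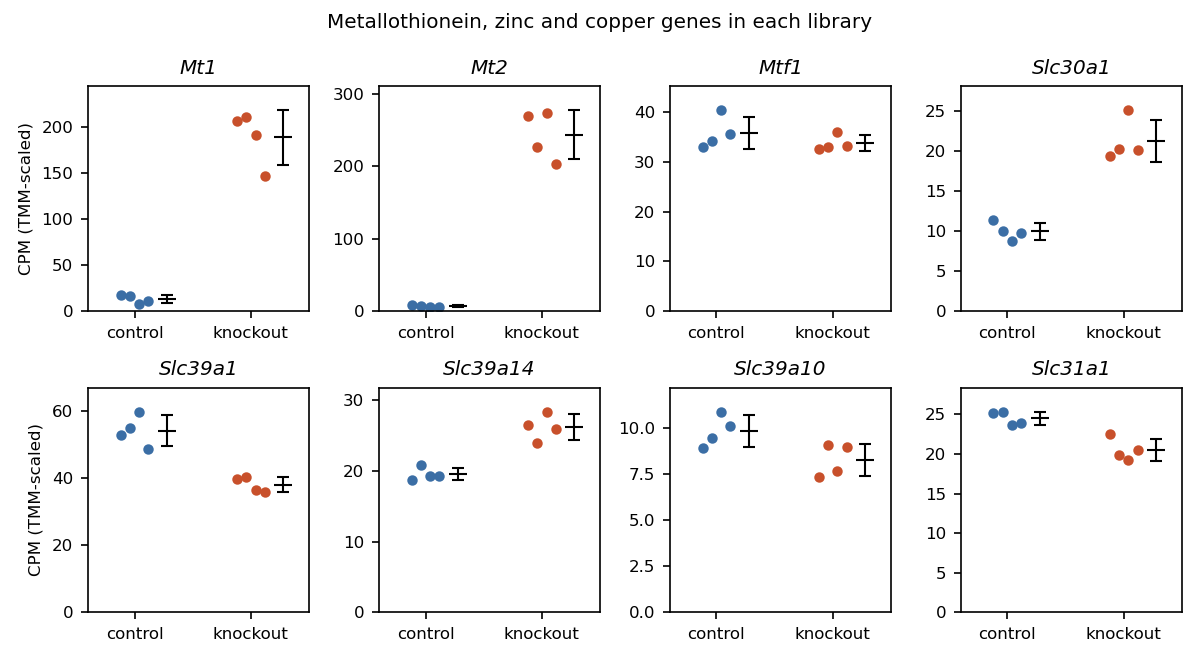
CPM over TMM-scaled library size (y axes, each from 0) of the 8 members in the 4 control libraries (blue) and the 4 knockout libraries (orange), 1 point per library in the order of replicates 1 to 4, with the mean and SD of each group in black. Mt1 and Mt2 are at most 16.8 CPM among controls and at least 146 CPM among knockouts, and only Mtf1 and Slc39a10 overlap between the groups.

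The remaining genes of zinc handling were not part of the selection by name and were tested in the fit of all genes. Of 16 metallothionein, ZnT and ZIP genes in the table, 7 rose, 3 fell and 6 did not pass, but with library totals alone 10 rose and none fell. Beside this, 23.6% of all genes rose and 21.1% fell under TMM. With library totals alone, 8498 of all 14012 genes rose and 873 fell. Mt4, Slc30a3, Slc30a8, Slc30a10, Slc39a4 and Slc39a12 were not analysed here. These lists were drawn up with earlier results of the same libraries known.

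Mt3, the metallothionein best known from brain, rose as well, from a low level. It had 21, 21, 20 and 9 counts among controls and 84, 64, 104 and 62 among knockouts, and its log2 fold change was 1.40 (SE 0.30, adjusted p = 0.0028 in edgeR's quasi-likelihood test). Its knockout mean, 3.30 ± 0.788 CPM (SD, n = 4), was small beside those of Mt1 and Mt2, and its transcripts share at least 25 bases with those of Mt1.

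Mt3, Mt2 and Mt1 lie side by side on chromosome 8, and the neighbours within 100 kb were looked at for that reason, after their values were known. The adjacent gene beyond Mt1, Nup93, which encodes a nuclear pore protein, rose with a log2 fold change of 0.62 (SE 0.089, adjusted p = 1.9e-04 in edgeR). Ogfod1 (0.11, adjusted p = 0.30) and Bbs2 (0.26, adjusted p = 0.10), on the other side, did not pass in edgeR. So under TMM the values of the 3 metallothioneins, of 14.8-fold, 36.8-fold and 2.63-fold, stand between neighbours of at most 1.54-fold. With library totals alone Nup93 was at 1.29 on the log2 scale (adjusted p = 8.8e-07 in edgeR) and Mt3 at 2.06.

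Among the other ZnT genes 2 rose, 2 fell and 2 did not pass, with a median log2 fold change of 0.24 over 6. Slc30a4 (ZnT4) and Slc30a5 (ZnT5), which load zinc into vesicles and the secretory pathway, rose by 0.51 (SE 0.098, adjusted p = 0.0013) and 0.60 (SE 0.071, adjusted p = 5.8e-05) in edgeR's test. Slc30a5 had 13.3 to 14.7 CPM among controls and 20.3 to 21.7 CPM among knockouts. Slc30a2 (ZnT2), a vesicular transporter, had 15.0 to 33.8 CPM among controls and 5.13 to 9.16 CPM among knockouts, with no overlap. It fell by 1.51 on the log2 scale (SE 0.26, adjusted p = 6.5e-04 in edgeR), but by 0.85 with an adjusted p of 0.011 with library totals alone.

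Slc30a9, whose product exports zinc from mitochondria, had the highest mean FPKM of the listed ZnT and ZIP genes among controls, 34.1 FPKM. It had 108, 117, 121 and 114 CPM among controls and 68.6, 68.8, 68.9 and 65.9 CPM among knockouts. The log2 fold change was -0.76 (SE 0.061, adjusted p = 4.4e-06 in edgeR), but -0.091 with an adjusted p of 0.24 with library totals alone. Slc30a7 (0.46, adjusted p = 0.011) and Slc30a6 (0.015, adjusted p = 0.92) did not pass in edgeR.

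Of the other 9 ZIP genes 4 rose, 1 fell and 4 did not pass, with a median log2 fold change of -0.082. Slc39a11 (ZIP11) had 3.39, 3.86, 4.44 and 3.59 CPM among controls and 9.55, 10.1, 10.6 and 9.26 CPM among knockouts, a rise of 1.37 (SE 0.12, adjusted p = 6.9e-06 in edgeR). Slc39a6 (ZIP6), the plasma membrane partner of ZIP10, had 3.55, 3.27, 4.08 and 4.16 CPM among controls and 8.17, 8.24, 9.41 and 9.98 CPM among knockouts, a rise of 1.25 (SE 0.13, adjusted p = 2.2e-05 in edgeR). Both were low among controls, and the groups were well separated in each.

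Slc39a7 (ZIP7), which releases zinc from the endoplasmic reticulum, rose by 0.35 (SE 0.060, adjusted p = 6.9e-04 in edgeR), from 66.8 ± 2.87 to 84.9 ± 2.64 CPM (SD, n = 4 each). Slc39a9 (ZIP9) passed with 0.41 (adjusted p = 0.0068 in edgeR) but not when any library other than control replicate 4 was left out, with log2 fold changes of 0.33 to 0.47, nor with RLE scaling (0.36, adjusted p = 0.011). Slc39a13 (ZIP13), an intracellular zinc transporter, fell by 0.43 (SE 0.088, adjusted p = 0.0020 in edgeR), but was at 0.24 with library totals alone. Slc39a2, Slc39a3, Slc39a5 and Slc39a8 did not pass, with log2 fold changes from -0.20 to -0.082 and adjusted p of 0.57 to 0.70 in edgeR. Of these, Slc39a3 was at 28.2 ± 5.45 CPM among controls and 26.7 ± 2.56 CPM among knockouts (SD, n = 4 each).

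Matches to the metal response element core were also counted in the start windows of these other genes. Slc30a4, which rose, held 3, and Slc30a2, which fell, held 2. Mt3, Slc30a5, Slc39a11, Slc39a13, Slc39a3 and Slc39a5 held 1 each, and these include genes that rose, fell or did not pass. The window of Slc30a2 is set on a start 420 bases and that of Slc39a3 on one 3403 bases away from the start in the deposited table, and Slc39a6 matched no window.

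Besides Slc31a1, 10 genes of copper handling were in the table, of which 3 rose, 4 fell and 3 did not pass, but with library totals alone 7 rose and none fell. The shares of all genes were 23.6% higher and 21.1% lower under TMM. By library totals alone, 8498 of all 14012 genes were called higher and 873 lower. Slc31a2 (CTR2), a low-affinity copper transporter, had 11.8, 9.89, 12.8 and 9.64 CPM among controls and 6.09, 6.50, 6.40 and 6.24 CPM among knockouts. Its log2 fold change was -0.80 (SE 0.12, adjusted p = 2.1e-04 in edgeR), but -0.13 with an adjusted p of 0.29 with library totals alone. Atp7a, the copper-exporting ATPase, rose by 0.53 (SE 0.11, adjusted p = 0.0026 in edgeR), from 10.5 ± 1.59 to 15.1 ± 0.622 CPM (SD, n = 4 each). Ccs, the chaperone that hands copper to superoxide dismutase, rose by 0.53 as well (SE 0.096, adjusted p = 9.6e-04 in edgeR).

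The copper genes of mitochondria were divided. Slc25a3, the inner membrane carrier of phosphate and copper, fell by 0.50 (SE 0.077, adjusted p = 3.3e-04 in edgeR), from 853 ± 46.7 to 603 ± 28.5 CPM (SD, n = 4 each), but was at 0.17 with library totals alone. Cox11, an assembly factor of cytochrome c oxidase, fell by 0.46 (SE 0.072, adjusted p = 3.5e-04 in edgeR), but was at 0.20 with library totals alone, and its span overlaps that of Tom1l1. Sco1, which brings copper to the same enzyme, rose by 0.52 (SE 0.11, adjusted p = 0.0026 in edgeR), a call lost without knockout replicate 4 (0.41, adjusted p = 0.012). Cox17, the donor of copper to these factors, did not pass (0.043, adjusted p = 0.70 in edgeR).

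Commd1, a factor in copper export whose span overlaps that of Zrsr1, fell by 0.37 (SE 0.10, adjusted p = 0.0089 in edgeR), but was at 0.29 with library totals alone. The call was lost when control replicate 1, 2 or 3 or knockout replicate 1 or 4 was left out, with log2 fold changes of -0.44 to -0.30 over all libraries left out. Atox1, the chaperone that serves ATP7A (0.16, adjusted p = 0.25), and Cutc (-0.23, adjusted p = 0.061) did not pass in edgeR. Atp7b and Sco2 were not analysed here.

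**Figure D4:**
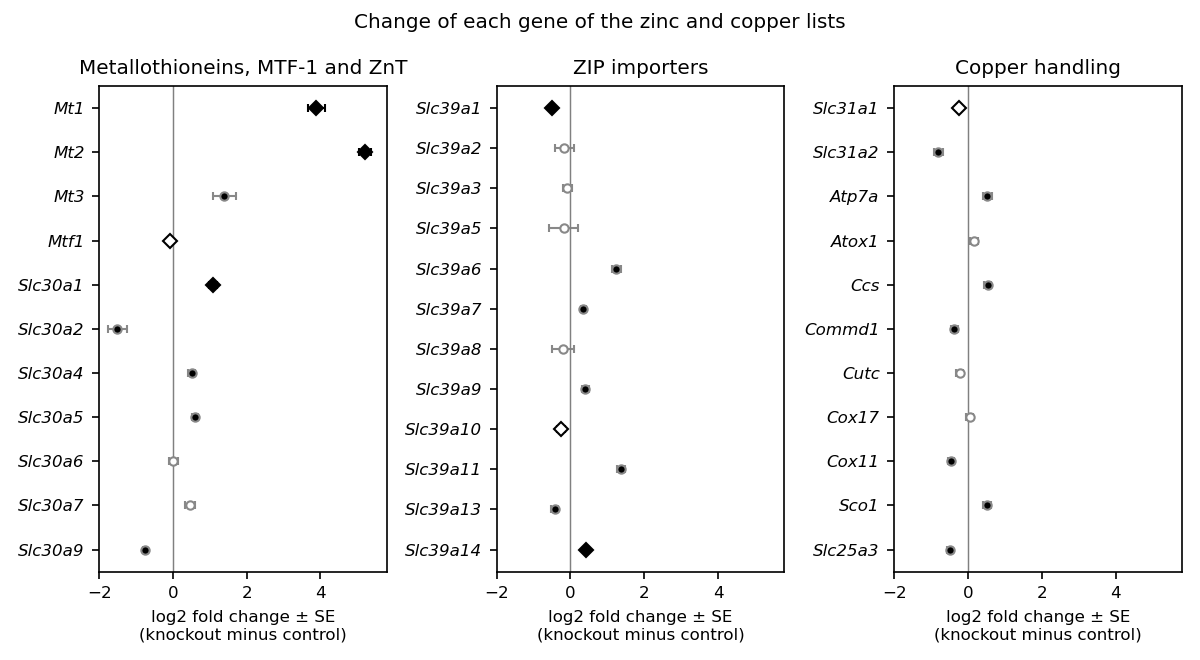
Log2 fold change (knockout minus control, x axis) with its standard error for the genes of the metallothionein, ZnT, ZIP and copper lists found in the table, under TMM scaling. Diamonds are the 8 members and circles the other genes, and filled symbols are past an adjusted p of 0.01. Mt2 at 5.20 and Mt1 at 3.89 stand apart from the rest, which lie between -1.51 and 1.40.

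Transporters of other metals and other genes reported to depend on MTF-1 were followed for comparison. Of 5 other metal transporters 1 rose and 1 fell, but 2 rose and none fell with library totals alone. Slc11a1 (NRAMP1), known from macrophages, rose by 1.78 (SE 0.21, adjusted p = 5.0e-05 in edgeR). Trpm7, a channel for magnesium and zinc, fell by 0.43 (adjusted p = 0.0017 in edgeR) but was at 0.24 with library totals alone, and Slc11a2, Slc40a1 and Mcoln1 did not pass, at -0.40, -0.54 and -0.087.

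Of 5 reported MTF-1 dependent genes that are not members, Gclc, the catalytic subunit of the first enzyme of glutathione synthesis, rose by 0.50 (SE 0.11, adjusted p = 0.0039 in edgeR). Sepw1, the gene of selenoprotein W, fell by 1.08 (SE 0.14, adjusted p = 1.2e-04 in edgeR). Ndrg1 (0.21), Csrp1 (-0.077) and 2700094K13Rik, the former name of Selenoh (0.051), did not pass. The genes on this list other than Mt1, Mt2 and Slc30a1 lay between -1.08 and 0.50. The 5 that are not members had a median of 0.051, beside 0.065 over all genes. With library totals alone 3 of these 5 rose and 1 fell, with a median of 0.73, which is also the median of all genes there. These medians take no account of the direction in which MTF-1 acts on each gene, and its activity was not tested.

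Genes responsive to glucocorticoids and to IL-6 were counted beside the metallothioneins, as both agents are known to raise Mt1 and Mt2. Of 13 glucocorticoid responsive genes none rose and 5 fell, with a median log2 fold change of -0.46, but 2 rose and 3 fell, with a median of 0.19, with library totals alone. The 5 that fell under TMM were Pdk4 (-2.82, adjusted p = 8.4e-04), Tsc22d3 (-1.50, adjusted p = 7.3e-06), Sgk1 (-1.47, adjusted p = 5.6e-04), Dusp1 (-1.42, adjusted p = 1.3e-06) and Klf9 (-0.50, adjusted p = 0.0076) in edgeR's test. With library totals alone Sgk1 was at -0.82 (adjusted p = 0.011 in edgeR) and Klf9 at 0.16, and neither passed. Fkbp5 was at 0.12 (adjusted p = 0.73 in edgeR). Of 9 genes of the STAT3 and IL-6 response 6 rose and none fell, with a median of 1.52, and 4 to 8 rose under the other scalings. Among all genes 23.6% rose and 21.1% fell under TMM. The count of 8 came with library totals alone, where 8498 of all 14012 genes rose and 873 fell. Among the genes of this list that passed, the largest changes were those of Lcn2, a secreted iron-siderophore carrier (5.02, SE 0.79, adjusted p = 3.7e-04 in edgeR), and Socs3, the feedback inhibitor of the pathway (1.84, SE 0.25, adjusted p = 1.3e-04 in edgeR). Lcn2 rose from a low level, 2 to 15 counts among controls, and varied widely among knockouts, from 4.89 to 39.7 CPM. Bcl3 rose by 1.80 (adjusted p = 0.0011), Junb by 1.52 (adjusted p = 3.8e-06), Il6st by 0.38 (adjusted p = 0.0037) and Osmr by 0.34 (adjusted p = 0.0095) in edgeR. Serpina3n, another gene of this list, did not pass, at 2.13 (adjusted p = 0.041 in edgeR). What part either response had in the levels of Mt1 and Mt2 was not tested.

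Marker genes of the cell types found in muscle also differed between the groups. The counts below stand beside 23.6% of all genes higher and 21.1% lower under TMM. With library totals alone, 8498 of all 14012 genes rose and 873 fell. Of 8 muscle fibre markers 2 rose and 6 fell, and their summed level was 193304 to 246816 CPM among controls and 69632 to 98501 CPM among knockouts. Satellite cell markers rose in 4 of 5 genes and fell in none (138 to 145 against 305 to 389 CPM), and 5 rose with library totals alone. Most of that sum was Itga7, with means of 107 and 289 CPM. Pax7 was the marker that did not pass under TMM (0.28, adjusted p = 0.28 in edgeR). Fibroblast markers fell in 5 of 7 genes (1677 to 2549 against 671 to 1030 CPM), but with library totals alone 1 fell and 1 rose. Endothelial markers fell in 4 of 6 genes (295 to 436 against 229 to 248 CPM), but none passed with library totals alone. Of 10 macrophage markers 1 passed, Cd68 at 2.62, but 8 rose with library totals alone, and their sum was 82.6 to 212 CPM among controls and 171 to 315 CPM among knockouts. No adipocyte marker of 6 passed (246 to 1396 against 676 to 2431 CPM). Control replicate 3, lowest of the controls in Mt1, had 3.58 CPM of Adipoq beside 59.0 to 91.7 CPM in the other controls. Among knockouts Adipoq was lowest in replicate 3, at 32.1 CPM, and Mt1 in replicate 4. No Schwann cell marker of 5 passed (36.5 to 120 against 57.1 to 94.4 CPM), but 1 rose with library totals alone. None of the markers of these cell types was at 0 in a group mean. In bulk muscle fewer cells of a type and less RNA per cell cannot be told apart, and the part of these cells in the levels of the members was not tested.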

How the data were processed

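QF RNA of 4 knockout and 4 control mice was sequenced. After poly(A) capture and directional library preparation, the authors mapped the read pairs to GRCm38 (per the submitters' notes with bcl2fastq 2.20.0.422, cutadapt and STAR 2.5.4b) and deposited raw counts per gene, without multimapping or duplicate reads and without genes of low total count. The deposited FPKM values are the same counts per scaled library and exon width. The authors' columns of fold changes and p-values from DESeq2 1.32.0 were not used.

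Counts of all 14012 genes were fitted with edgeR 4.0.16 (quasi-likelihood test, TMM, the label as the only term, Benjamini-Hochberg adjustment over all genes, R 4.3.3), with log2 CPM at a prior count of 2. The biological coefficient of variation was 0.157. Replicates differed by 17.2 to 42.7 in chi-square per degree of freedom, so none repeats another. A count of 0 allows 3 counts, or 0.119 to 0.242 CPM, which covers counting error only. The procedure was tested on simulated data.

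The members and lists were chosen with earlier results of these data known. Genes named are the members, the genes past the threshold with the 3 highest and 3 lowest changes of each list, zinc and copper genes with a mean of at least 50 counts in a group, the 5 genes most like Mt1 and Mt2, and Grpel1. Genes named outside this rule were chosen after their values were seen. Alternatives were RLE, upper-quartile and total-count scaling, a low-count filter, DESeq2 1.42.0, a threshold of 0.05, the replicate number as a block, and each library left out. Sequences came from RefSeq (GRCm38.p6) and GENCODE M21. The 2 selenoprotein genes were matched through older symbols.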

Additional observations from a re-analysis of the deposited data

Results flagged for a closer look

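The 4 libraries of each group were compared with each other for 34 genes, and in 6 of these 68 groups a single library stood far from the other 3, where chance gives about 1 in 20. Slc30a1 was at 25.1 CPM in knockout replicate 3 and at 19.3 to 20.1 CPM in the other knockouts. Slc30a9 was at 65.9 CPM in knockout replicate 4 beside 68.6 to 68.9 CPM. Atp7a was at 16.01 CPM in knockout replicate 1 beside 14.7 to 14.9 CPM. Commd1 was at 25.7 CPM in knockout replicate 2 beside 32.6 to 33.6 CPM. Among the controls, Sco1 was at 9.86 CPM in replicate 1 beside 8.13 to 8.38 CPM, and Slc25a3 at 783 CPM in replicate 4 beside 873 to 879 CPM.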

How the results depend on the processing

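Library totals alone in place of TMM turned the sign of genes that were lower, to 0.17 for Slc39a1, 0.58 for Mtf1, 0.42 for Slc39a10, 0.41 for Slc31a1, 0.51 for Slc39a2, 0.59 for Slc39a3, 0.48 for Slc39a5, 0.47 for Slc39a8, 0.24 for Slc39a13, 0.29 for Commd1, 0.44 for Cutc, 0.20 for Cox11 and 0.17 for Slc25a3, while Mt1 (4.55), Mt2 (5.86), Slc30a1 (1.75) and Slc39a14 (1.09) stayed higher. The median over all genes was 0.73 with library totals alone, above each of the values that turned sign. No other alternative turned the sign of a called gene. The count of other zinc genes past the threshold was 10, and 9 to 11 over the alternatives. That of copper genes was 7, and 5 to 7. The count over all genes was 6265 and 9371 with library totals alone (8498 higher and 873 lower), and leaving out each library gave 5196 to 5867. Without any one library, Mt1 stayed within 3.72 to 4.05, Mt2 within 5.10 to 5.29, Slc30a1 within 0.97 to 1.16 and Slc39a14 within 0.35 to 0.45. Slc31a1 was also past the threshold as lower with RLE, DESeq2, a threshold of 0.05 or without knockout replicate 1, and as higher with library totals alone, where Mtf1 was past it as higher too and Slc39a1 no longer. The r of Mt1 and Mt2 was 0.62 to 0.87 without any one library, an alternative chosen after seeing the data. Same-numbered libraries deviated together with correlations of 0.118, 0.0031, 0.42 and 0.138, so the numbers were not taken to pair the mice. Knockout replicates 1, 3 and 4 correlated best with the control of their own number and replicate 2 did not. With the replicate number as a block, 10 zinc, 6 copper and 6123 of all genes passed, and Commd1 was lost (-0.38, adjusted p = 0.013 in edgeR). At these depths Slc39a5 and Slc39a8, with under 25 counts on average in either group, allow little precision.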
